A study of Mus musculus with 6 samples.

Results

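The genes described here encode the machinery by which a cell presents peptides on major histocompatibility complex (MHC) class II molecules. They were taken by symbol from a list of 10 genes, namely the chains of the class II molecules H2-Aa, H2-Ab1 and H2-Eb1, the invariant chain Cd74, the peptide exchange factor H2-DM (H2-DMa, H2-DMb1 and H2-DMb2), its inhibitor H2-DO (H2-Oa and H2-Ob) and the transcriptional coactivator Ciita. All 10 were found once each among the 46072 gene identifiers of the deposited count table, and all 10 were among the 16138 identifiers with enough counts to be tested. Messenger RNA was measured in unstimulated splenic monocytes of female C57BL/6 mice aged 8 to 10 weeks. The Con group (n = 3 mice) received water by oral gavage for 6 days, and the Van group (n = 3 mice) received vancomycin at 2 mg per mouse per day for the same 6 days. Vancomycin is an antibiotic that is poorly absorbed from the gut, and both groups were left without gavage before the monocytes were collected, for 6 to 8 days by the labels and for 8 days by the description of the RNA mice. The mice carried no transgene or deletion that the labels name. A group of vancomycin-gavaged mice that also received the bacterial lipid L654 was not analysed here.

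The monocytes were enriched by magnetic negative selection, in which cells bearing CD3e, CD45R, CD117, Ly-6G, NK1.1 or Siglec F were removed. These are markers of T cells, B cells, progenitors, neutrophils, natural killer cells and eosinophils. CD45R is also carried by plasmacytoid dendritic cells, while no marker of conventional dendritic cells is named among them. The libraries held 43383919 to 61834407 estimated counts each. The label of monocytes was checked against their defining genes. Csf1r, the receptor for the growth factor M-CSF, stood at 2985 to 3276 CPM (counts divided by the TMM-scaled library size) in Con and at 3039 to 3619 CPM in Van. Among B cell genes, Cd79a and Ms4a1 stood at no more than 2.77 CPM in any library, but Ighm stood at 441 to 694 CPM, Bank1 at 36.5 to 55.1 CPM and Cd22 at 18.2 to 28.2 CPM. In the bulk RNA of such a cell preparation, fewer cells of one type and less RNA per cell cannot be told apart.

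Class II molecules are pairs of an alpha and a beta chain that bind peptides from material a cell has taken up and show them to CD4 T cells at the cell surface. New chains assemble around the invariant chain, which blocks the peptide groove and directs the complex to endosomes, where proteases cut the invariant chain down to a small fragment. H2-DM removes this fragment and favours peptides that bind stably, and H2-DO, in the cells that make it, holds H2-DM back. Dendritic cells and B cells make the most class II, and monocytes make it at lower and variable levels. Transcription of class II genes depends on CIITA, which does not bind DNA itself but joins the RFX, CREB and NF-Y proteins on an array of short elements, the X and Y boxes, ahead of the gene. H2-Aa, H2-Ab1, H2-Eb1 and the genes of H2-DM and H2-DO lie close together on chromosome 17, and Ciita and Cd74 lie on other chromosomes.

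The promoters of these genes were searched for the cores of the X and Y boxes. RefSeq windows of 300 bases, from 250 bases before to 50 bases after an annotated start in build GRCm38.p6, were found for 7 of the 10 genes, and for H2-Ab1, Cd74 and Ciita none was found. The core of the Y box, TGATTGG, was searched on both strands and stood in 6 of the 7 genes, beside 7.82% of all 32851 mouse windows. The core of the X1 box, AGNAAC, is shorter and stood in 48.1% of all windows. An X1 core followed by a Y core in the same orientation with 15 to 35 bases between them, a spacing chosen after the windows were seen, stood in 4 of the 7 genes, H2-Oa, H2-DMb1, H2-Ob and H2-Eb1, beside 0.201% of all windows. It also stood ahead of H2-Eb2, a further class II beta chain gene of the same region. The 5 windows of members that could be printed, and that of H2-Eb2, are given below to show the spacing, each as 87 bases read 5′ to 3′ along the gene, with the X1 core of a pair and the Y core in capitals and everything else in lower case.
H2-Oa (chr17:34092274-34092360, plus strand): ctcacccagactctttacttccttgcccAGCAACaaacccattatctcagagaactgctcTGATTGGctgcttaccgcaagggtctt
H2-Ob (chr17:34238786-34238872, plus strand): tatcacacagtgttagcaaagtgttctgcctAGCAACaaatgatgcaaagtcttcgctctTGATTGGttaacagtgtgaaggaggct
H2-Eb1 (chr17:34305746-34305832, plus strand): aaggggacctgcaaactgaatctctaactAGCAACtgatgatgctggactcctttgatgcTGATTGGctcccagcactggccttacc
H2-Eb2 (chr17:34325513-34325599, plus strand): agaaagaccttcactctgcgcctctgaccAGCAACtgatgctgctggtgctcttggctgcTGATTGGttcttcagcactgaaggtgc
H2-Aa (chr17:34287847-34287933, minus strand): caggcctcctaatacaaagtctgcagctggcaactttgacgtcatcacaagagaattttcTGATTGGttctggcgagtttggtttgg
H2-DMb2 (chr17:34145097-34145183, plus strand): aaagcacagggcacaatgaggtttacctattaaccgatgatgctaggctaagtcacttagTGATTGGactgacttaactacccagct

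In the first 4 of these the pair is separated by 26, 23, 25 and 25 bases, and in H2-DMb1, whose window is not printed, by 26 bases. H2-Aa and H2-DMb2 held the Y core alone in these letters, and the 2 windows of H2-DMa held neither core on the sense strand. A match of letters is a description and no measure of binding. Of the 57 genes outside the list whose windows hold the pair, 32 were tested, and 16 of them were lower in Van, 1 of which, St8sia4, was called, and their median log2 fold change was -0.0065.

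**Figure D1:**
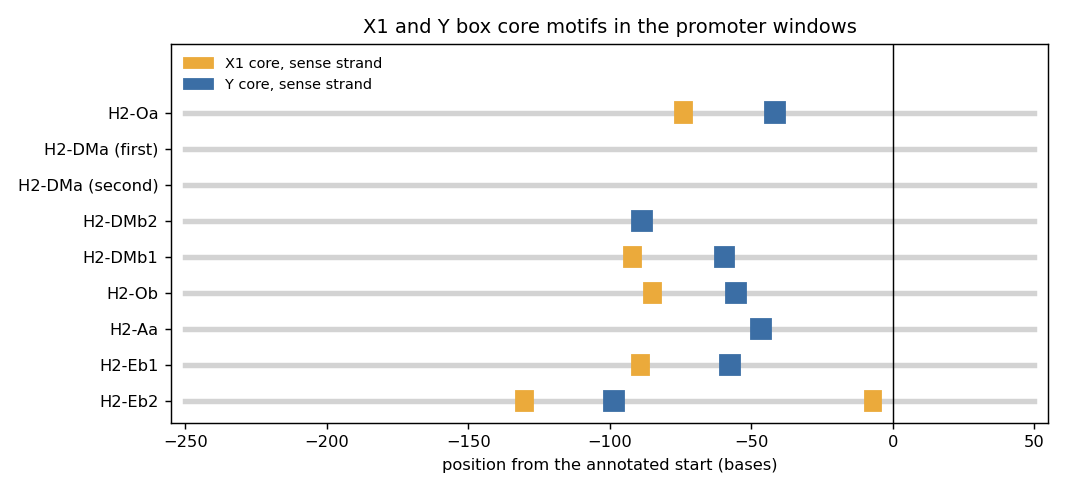
Each grey line is a promoter window, from 250 bases before to 50 bases after the annotated start at 0 (horizontal axis, bases), and the boxes are X1 cores (orange) and Y cores (blue) on the sense strand. The Y cores of H2-Aa, H2-Oa, H2-Ob, H2-Eb1 and H2-DMb1 begin 45 to 63 bases before the start, that of H2-DMb2 92 and that of H2-Eb2 102 bases before it, and both windows of H2-DMa are empty.

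Each of the 10 genes had a lower mean level in Van than in Con, where 50.4% of all genes tested had a log2 fold change below 0. The log2 fold changes ran from -0.22 for H2-DMa to -0.50 for H2-Oa, and their median was -0.35, where that of all genes tested was -0.0014. Van means were thus between 70.6% (H2-Oa) and 85.9% (H2-DMa) of Con means. After Benjamini-Hochberg adjustment over all genes tested, edgeR's quasi-likelihood test called none of the 10 at the threshold of 0.05, where it called 2.00% of all genes (322 genes) and 0.917% in the lower direction. An unadjusted p under 0.05 was found for 8 of the 10, all but H2-DMa and Ciita. Over all genes, 8.14% had such a p with a lower level in Van, and 16.5% in either direction. DESeq2's Wald test called 2 of the 10, H2-Aa (adjusted p = 0.0185) and H2-Eb1 (adjusted p = 0.0432), where it called 7.36% of the genes it adjusted and 3.61% in the lower direction. The 10 genes varied together across the mice, as described further on, so that their number does not count as 10 separate observations.

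H2-Aa encodes the alpha chain of I-A, the class II molecule of C57BL/6 mice. It lies on chr17:34282744-34287823 on the minus strand (GRCm38). Its level was 1261, 950 and 990 CPM in Con replicates 1, 2 and 3, respectively, while Van replicates 1, 2 and 3 stood at 944, 697 and 746 CPM. The groups did not overlap, but Van replicate 1 lay just under Con replicate 2. The means were 1067 ± 170 CPM in Con and 796 ± 131 CPM in Van (SD, n = 3 mice each). The log2 fold change was -0.42 ± 0.14 (SE, edgeR adjusted p = 0.169), and an exact two-sided permutation test of the CPM gave a p of 0.10, the smallest that 3 mice against 3 allow.

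H2-Ab1 encodes the beta chain of I-A and lies on chr17:34257689-34269419. Its level was 1025, 782 and 875 CPM in Con replicates 1, 2 and 3 and 823, 661 and 653 CPM in Van. Here the groups overlapped, since Van replicate 1 lay above Con replicate 2. The log2 fold change was -0.33 ± 0.12 (SE, edgeR adjusted p = 0.212). H2-Eb1, on chr17:34305867-34316674, encodes the beta chain of a second class II molecule, I-E. C57BL/6 mice carry a haplotype in which the gene of the I-E alpha chain is broken, so that this beta chain has no partner of its own. The alpha chain gene, named H2-Ea-ps in the annotation, was listed at 0 counts in all 6 libraries. H2-Eb1 transcripts stood at 786, 610 and 660 CPM in Con and at 626, 486 and 511 CPM in Van. As for H2-Ab1, only Van replicate 1 reached into the range of Con, and the log2 fold change was -0.34 ± 0.12 (SE, edgeR adjusted p = 0.195). H2-Eb2, the further beta chain gene, stood at 16.6, 10.8 and 16.6 CPM in Con and 16.7, 10.9 and 11.9 CPM in Van, and its log2 fold change was -0.15 ± 0.20 (SE, edgeR adjusted p = 0.796). With 1 mouse left out it ran from -0.03 (without Van replicate 2) to -0.36 (without Van replicate 1).

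Cd74, the invariant chain and also a cell surface receptor for the cytokine MIF, was the most abundant of the 10. Its level was 4111, 3025 and 3345 CPM in Con replicates 1, 2 and 3 and 3304, 2429 and 2625 CPM in Van. Van replicate 1 lay between Con replicates 2 and 3, so that the groups overlapped. The means were 3494 ± 558 and 2786 ± 459 CPM (SD, n = 3 mice each), which gave a log2 fold change of -0.33 ± 0.14 (SE, edgeR adjusted p = 0.282). It was -0.09 (adjusted p = 0.853) when limma was run on log2(FPKM + 1) values after quantile normalization. That scaling sets a value by its rank in the library, and Cd74 is among the most abundant transcripts of all.

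H2-DM is a pair of an alpha chain, encoded by H2-DMa, and a beta chain, encoded in mice by both H2-DMb1 and H2-DMb2. H2-DMb1 (chr17:34153072-34160230) stood at 148, 114 and 112 CPM in Con and at 111, 94.5 and 99.6 CPM in Van. The groups did not overlap, although Van replicate 1 came close to Con replicate 3, and the log2 fold change was -0.30 ± 0.11 (SE, edgeR adjusted p = 0.240). H2-DMb2 (chr17:34143307-34151555) was lower in level, at 28.8, 22.3 and 22.9 CPM in Con and 21.1, 18.0 and 17.8 CPM in Van. Its groups did not overlap, and its log2 fold change was -0.38 ± 0.12 (SE, edgeR adjusted p = 0.157). The transcripts of the 2 beta chain genes share a stretch of 1081 bases at 95.7% identity, so that the counting could have moved reads between them. H2-DMa (chr17:34119541-34139101) had the smallest difference of the 10. It stood at 195, 156 and 153 CPM in Con and at 142, 139 and 153 CPM in Van, and Con replicate 3 and Van replicate 3 were nearly level. The log2 fold change was -0.22 ± 0.10 (SE, edgeR adjusted p = 0.304), and 360 bases of its exons overlap those of Brd2 on the opposite strand.

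H2-DO, the inhibitor of H2-DM, is known chiefly from B cells and some dendritic cells, and its genes were the least abundant per transcript length. H2-Oa (chr17:34092340-34095234), the alpha chain, stood at 9.72, 7.57 and 7.37 CPM in Con and at 5.51, 6.69 and 5.23 CPM in Van, on 295 to 504 counts per library. All 3 Van mice lay under all 3 Con mice, and the log2 fold change of -0.50 ± 0.16 (SE, edgeR adjusted p = 0.155) was the farthest from 0 among the 10. A part of its exons, 321 bases, overlaps BC051537 on the opposite strand. H2-Ob (chr17:34238903-34254414), the beta chain, stood at 10.9, 9.19 and 8.41 CPM in Con and at 7.97, 6.00 and 7.38 CPM in Van, on 306 to 564 counts. Its groups did not overlap either, and the log2 fold change was -0.41 ± 0.15 (SE, edgeR adjusted p = 0.210).

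Ciita, the coactivator of class II transcription, lies on chr16:10480059-10528418. Its level was 119, 72.1 and 81.1 CPM in Con replicates 1, 2 and 3 and 81.4, 71.0 and 60.3 CPM in Van. Con replicate 1 stood apart, and the other 5 mice ran from 60.3 to 81.4 CPM with the groups overlapping. The means were 90.6 ± 24.7 and 70.9 ± 10.5 CPM (SD, n = 3 mice each), which gave a log2 fold change of -0.35 ± 0.18 (SE, edgeR adjusted p = 0.380). Without Con replicate 1 the log2 fold change was -0.11 ± 0.13 (SE, edgeR adjusted p = 0.754). The exons of Ciita and of Dexi, on the opposite strand, share 329 bases.

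**Figure D2:**
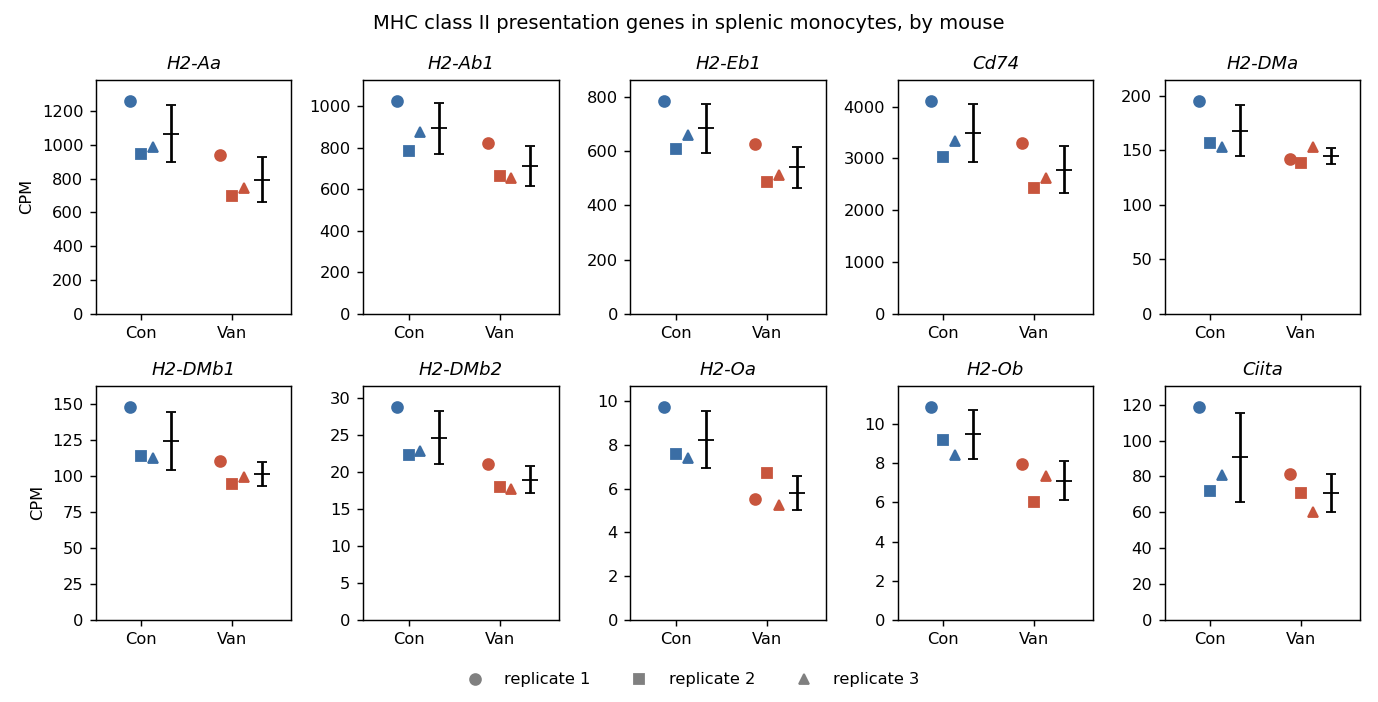
CPM (vertical axis, from 0) of each gene in the 3 Con (blue) and 3 Van (red) mice, with the symbol giving the replicate number and the black bar the mean and SD of the group. The groups were apart for H2-Aa, H2-DMa, H2-DMb1, H2-DMb2, H2-Oa and H2-Ob, and in every panel the circle of Con replicate 1 is the highest point.

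For 6 of the 10 genes, all Van mice lay under all Con mice, beside 11.0% of all genes tested. These were H2-Aa, H2-DMb1, H2-DMb2, H2-Oa, H2-Ob and, by less than 1 CPM, H2-DMa. The order of the mice was much the same from gene to gene. Con replicate 1 was the highest of the 6 libraries for all 10 genes, beside 18.3% of all genes tested, and the lowest was Van replicate 2 for 6 genes and Van replicate 3 for 4. Within Van, replicate 1 was the highest for 8 genes, with H2-DMa highest in replicate 3 and H2-Oa in replicate 2. Summed over the 10 genes, the level was 7695, 5748 and 6255 CPM in Con replicates 1, 2 and 3 and 6065, 4608 and 4879 CPM in Van, so that Van replicate 1 lay above Con replicate 2. On a scale that gives each gene the same weight, the mean deviation of log2 CPM from the average of the 6 libraries was 0.43, 0.03 and 0.07 in Con and -0.02, -0.26 and -0.25 in Van. On this scale the Con mice all lay above the Van mice, with Con replicate 1 farther from the other Con mice than those were from Van replicate 1.

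The size of the difference therefore rested in part on single mice. Without Con replicate 1, the 10 genes were still lower in Van at a median of -0.23 (log2), and 3 of them, H2-Aa, H2-DMb2 and H2-Oa, had an unadjusted p under 0.05, beside 7.45% of all genes with a lower level in Van. The log2 fold change moved by more than 1.5 times in 4 genes, to -0.10 in H2-DMa, -0.16 in H2-DMb1, -0.20 in Cd74 and, as above, in Ciita. Without Van replicate 2 the median was -0.29 with 2 genes at an unadjusted p under 0.05, beside 6.13% of all genes, and without Van replicate 3 it was -0.29 with 5, beside 6.89%. In the other direction, the median was -0.43 with 10 such p-values without Con replicate 2 (6.84% of all genes), -0.39 with 8 without Con replicate 3 (5.88%) and -0.46 with 9 without Van replicate 1 (7.94%). The smallest adjusted p of any of the 10 in the 6 fits that left out 1 mouse was 0.0805, for H2-Aa without Van replicate 1 (edgeR). All 10 genes had log2 fold changes below 0 in each of the 15 alternative fits, which shared the same 6 libraries.

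**Figure D3:**
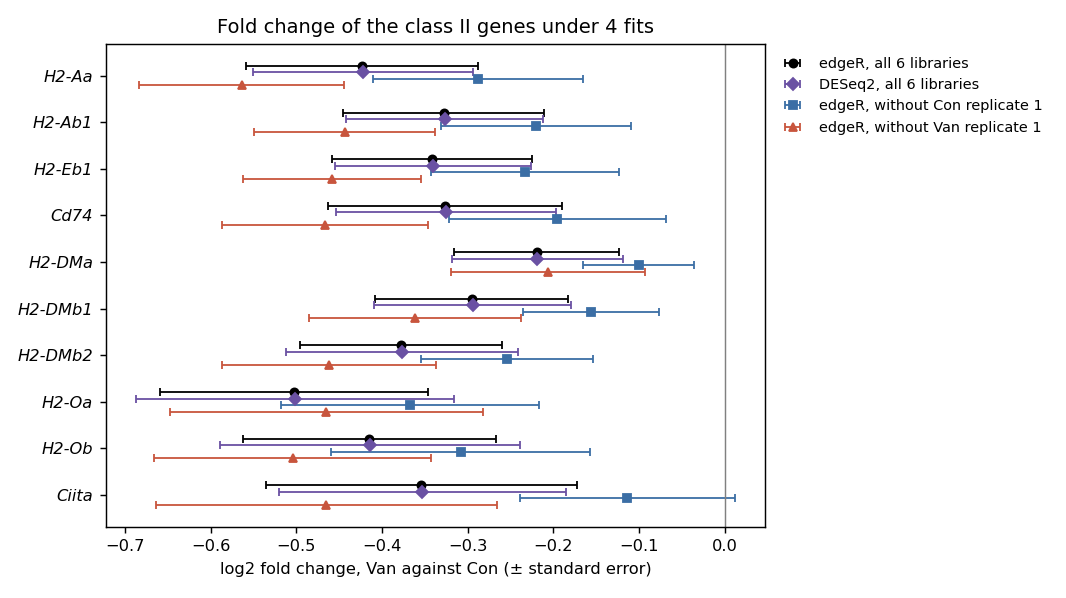
Log2 fold change of Van against Con (horizontal axis) with its standard error for each gene, from edgeR and DESeq2 on all 6 libraries and from edgeR without Con replicate 1 or Van replicate 1. All points lie left of 0, and those without Con replicate 1 lie nearest to it, from -0.10 for H2-DMa and -0.11 for Ciita to -0.37 for H2-Oa.

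Levels of different genes were compared as FPKM, which scales to transcript length. By this measure the order was Cd74, H2-Aa, H2-Ab1, H2-Eb1, H2-DMa, H2-DMb1, H2-DMb2, Ciita, H2-Oa and H2-Ob in the mean over the 6 libraries. Cd74 stood at 2276 ± 353 FPKM in Con and 1815 ± 286 FPKM in Van (SD, n = 3 mice each), and H2-Ob, at the other end, at 3.29 ± 0.307 and 2.45 ± 0.261 FPKM. The chains of I-A, H2-Aa (805 ± 122 FPKM in Con) and H2-Ab1 (633 ± 85.6 FPKM), and H2-Eb1 (484 ± 61.7 FPKM) formed the next tier. H2-DMa (90.8 ± 11.5 FPKM in Con) and H2-DMb1 (74.4 ± 11.3 FPKM) came well under them. H2-DMb2 (16.6 ± 2.24 FPKM), Ciita (14.4 ± 3.82 FPKM) and H2-Oa (6.18 ± 0.889 FPKM) were lower again. Over the 6 libraries the ranges of H2-Aa and H2-Ab1 overlapped, as did those of H2-Ab1 and H2-Eb1, of H2-DMa and H2-DMb1, and of H2-DMb2 and Ciita. Within a library the order held for each pair of neighbours in all 6 libraries.

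**Figure D4:**
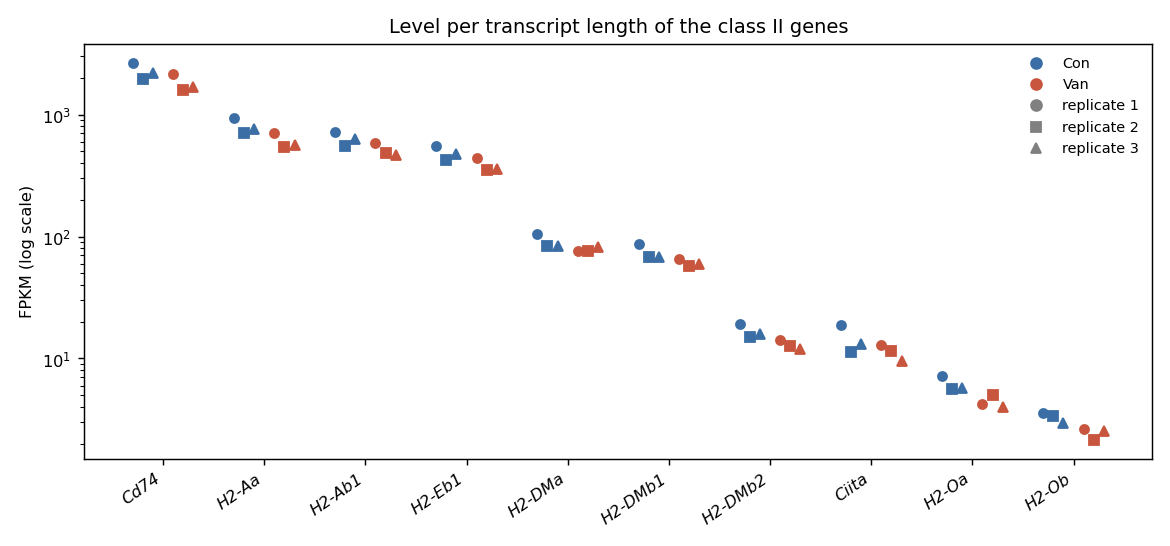
FPKM (vertical axis, log scale) of each gene in the 3 Con (blue) and 3 Van (red) mice, with symbols for the replicate number and genes ordered by mean level. The levels run from Cd74 over the class II chains, H2-DM and Ciita to H2-DO, and the ranges of H2-DMb2 and Ciita overlap.

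Ratios within a library do not depend on its size. H2-DO transcripts, as the sum of H2-Oa and H2-Ob in FPKM, were 0.0511, 0.0543 and 0.0513 of the H2-DM transcripts (H2-DMa, H2-DMb1 and H2-DMb2) in Con replicates 1, 2 and 3. In Van the ratios were 0.0436, 0.0491 and 0.0429, all under those of Con. The mean log2 ratio was -4.26 ± 0.05 in Con and -4.47 ± 0.11 in Van (SD, n = 3 mice each), a difference of -0.21 (exact two-sided permutation test, p = 0.10, the smallest possible). It was -0.19 from CPM and between -0.17 and -0.27 with 1 mouse left out. The ratio of Cd74 to H2-Aa was 2.82, 2.76 and 2.91 in Con and 3.01, 2.97 and 3.02 in Van, so that the groups were again apart, by 0.09 on the log2 scale (exact two-sided permutation test, p = 0.10). H2-DMb2 was 0.219, 0.221 and 0.231 of H2-DMb1 in Con and 0.216, 0.220 and 0.200 in Van, with overlapping groups (exact two-sided permutation test, p = 0.20). From CPM these groups were apart, by -0.09 on the log2 scale (exact two-sided permutation test, p = 0.10). In FPKM, Van replicate 3 lay apart at 0.200, where the other libraries ran from 0.216 to 0.231. With 4 ratios tested and 0.10 as the smallest possible p, no ratio could pass a threshold of 0.05.

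The fourth ratio set the class II chains against the class I chains, which present peptides from inside the cell to CD8 T cells, and was chosen after values were seen. The sum of H2-Aa, H2-Ab1 and H2-Eb1 in FPKM was 0.902, 0.800 and 0.674 of the sum of H2-K1 and H2-D1 in Con replicates 1, 2 and 3, respectively. It was 0.618, 0.586 and 0.651 in the corresponding Van mice. The highest Van ratio lay just under the lowest Con ratio, in Con replicate 3, and the difference of the mean log2 ratios was -0.35 (exact two-sided permutation test, p = 0.10). Without Con replicate 1 it was -0.25. H2-K1 stood at 2121, 1735 and 2319 CPM in Con and 2408, 1830 and 1708 CPM in Van, and its log2 fold change was -0.05 ± 0.14 (SE), with a range of -0.22 to 0.04 when 1 mouse was left out. H2-K1 and H2-D1 have close relatives among the class I genes, so that the counting could have moved reads between them.
Over a list of 17 class I presentation genes, 13 were lower and 4 higher in Van, at a median of -0.11 (log2). The edgeR test called none of them. An unadjusted p under 0.05 was found for 6 of the 17, where 16.5% of all genes had one in either direction. DESeq2 called 2, Calr and Canx, both chaperones of the endoplasmic reticulum that were higher in Van. None of the 17 had all Van mice under all Con mice, beside 11.0% of all genes, and 3, Calr, Canx and Pdia3, had all Van mice above all Con mice, beside 11.5% of all genes. The 2 genes farthest from 0 were both lower. Tap1, a subunit of the peptide transporter of the endoplasmic reticulum, stood at 376, 257 and 278 CPM in Con and 276, 210 and 233 CPM in Van (log2 fold change -0.34, edgeR adjusted p = 0.300). Tapbpl, a peptide editor of class I, had a log2 fold change of -0.32 (edgeR adjusted p = 0.291). Both were highest in Con replicate 1, as the class II genes were. Without that mouse their log2 fold changes were -0.16 and -0.22.

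The promoter-binding partners of CIITA and factors that regulate Ciita, in either direction, form a list of 18 genes, all tested. Of these, 10 were lower and 8 higher in Van, with a median of -0.0081, and 1 was called. This was Irf4, a transcription factor of lymphocytes and dendritic cells, which fell from 38.6, 42.8 and 35.6 CPM in Con to 25.0, 29.2 and 24.9 CPM in Van. Its groups were well apart, with a log2 fold change of -0.57 ± 0.09 (SE, edgeR adjusted p = 0.0304), although the adjusted p was between 0.0686 and 0.0967 with 1 mouse left out. Next to it was Rfx5, the DNA-binding subunit of the RFX complex at the X box, at 32.0, 29.1 and 32.7 CPM in Con and 25.2, 24.9 and 22.9 CPM in Van. Its groups did not overlap, with a log2 fold change of -0.36 ± 0.08 (SE, edgeR adjusted p = 0.0551, and 0.00624 from DESeq2). The spread of Rfx5 among the Con mice did not follow that of the class II genes, since Con replicate 3 was the highest. The other RFX subunits were at a log2 fold change of -0.08 (Rfxap) and 0.09 (Rfxank), and the NF-Y subunits, which bind the Y box, at 0.16 (Nfya), 0.21 (Nfyb) and -0.08 (Nfyc), none of them called.
Irf1 carries the interferon gamma signal to one of the promoters of Ciita, and was picked after its values were seen. Irf1 stood at 529, 286 and 308 CPM in Con and at 340, 275 and 273 CPM in Van, overlapping, with a log2 fold change of -0.34 (edgeR adjusted p = 0.496). As in Ciita, Con replicate 1 was the highest of the 6 mice, and without it the log2 fold change of Irf1 was -0.0054 (edgeR adjusted p = 0.99).

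Of 18 genes for the processing of antigen and the turnover of class II, 9 were lower and 9 higher in Van, with a median of -0.0004. The gene called by edgeR was March8, a membrane-bound ubiquitin ligase that takes class II among other proteins from the cell surface. It rose from 26.2, 26.3 and 25.4 CPM in Con to 31.7, 36.0 and 33.1 CPM in Van, and the groups were apart. The log2 fold change was 0.37 ± 0.07 (SE, edgeR adjusted p = 0.0411), and the adjusted p was between 0.0623 and 0.164 with 1 mouse left out. March1, the related ligase known for its action on class II in dendritic cells and B cells, was at 221 to 238 CPM in Con and 225 to 236 CPM in Van (log2 fold change 0.00). Cst7, an inhibitor of cysteine proteases, had the log2 fold change farthest from 0 of the list, -1.08 ± 0.33 (SE, edgeR adjusted p = 0.152), at 3.24, 3.59 and 6.33 CPM in Con and 2.27, 2.65 and 1.29 CPM in Van. It was -0.72 without Con replicate 3. DESeq2 called 3 genes of the list, March8, Cst7 (adjusted p = 0.0329) and Lgmn, a lysosomal protease with a log2 fold change of 0.23 (edgeR adjusted p = 0.0932). Ctss, the protease that trims the invariant chain in these cell types, stood at 1710 to 1794 CPM in Con and 1713 to 1803 CPM in Van, with a log2 difference of 0.01 ± 0.05 (SE). Over both lists and the rest of the class II region, 37 of 38 genes were tested, of which 20 were lower and 17 higher, with 1 call in each direction by edgeR and a median of -0.0028.

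**Figure D5:**
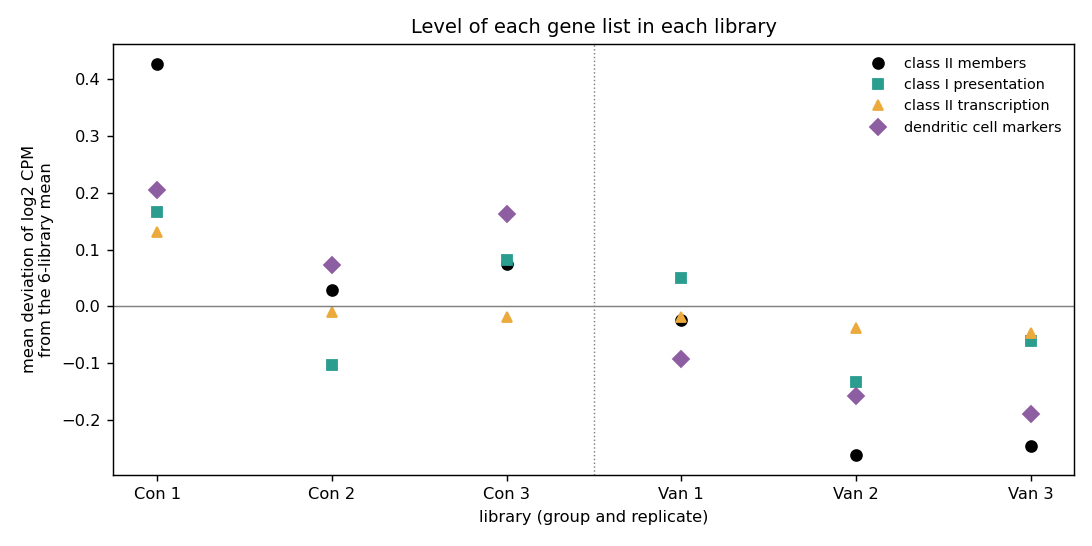
Mean deviation of log2 CPM from the 6-library mean (vertical axis) in each library (horizontal axis) for the 10 class II genes and for lists of class I presentation, class II transcription and dendritic cell marker genes. The class II genes run from 0.43 in Con replicate 1 to -0.26 in Van replicate 2, and the class I list from 0.17 to -0.13 in the same libraries.

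Cells other than monocytes express these genes, and the levels of their markers were set beside the class II genes. Of 16 markers of conventional dendritic cells, which rank among the highest expressers of class II, 15 were lower in Van, and 2 were called by edgeR, Clec9a and Kmo, and 4 by DESeq2, these and Batf3 and Xcr1. Clec9a, a receptor for dead cells on the cross-presenting subset, fell from 11.5, 8.79 and 10.1 CPM in Con to 4.98, 4.18 and 4.81 CPM in Van (log2 fold change -1.12 ± 0.14 as SE, edgeR adjusted p = 0.0131). Leaving out Con replicate 3 brought the adjusted p of Clec9a to 0.0721 and leaving out Van replicate 2 to 0.0758, and that of Kmo (log2 fold change -0.66, edgeR adjusted p = 0.0431), an enzyme of tryptophan breakdown, exceeded 0.05 whichever mouse was left out. With limma on log2(FPKM + 1), a scale that understates the change of low genes, Clec9a was at -0.59 (adjusted p = 0.14). With limma on log2(FPKM + 0.1) it was at -0.87 (adjusted p = 0.143), so that it was called on neither scale. Xcr1, a chemokine receptor of the same subset, was at 2.85 to 3.51 CPM in Con and 1.59 to 1.97 CPM in Van (log2 fold change -0.85, edgeR adjusted p = 0.0667). Flt3, the receptor on which dendritic cells depend, went the other way, at 31.1 to 38.8 CPM in Con and 40.0 to 45.0 CPM in Van (log2 fold change 0.25, edgeR adjusted p = 0.230, and 0.16 on the log2 scale without Con replicate 3). Batf3, a transcription factor of that subset, was at 14.5 to 15.6 CPM in Con and 10.5 to 12.8 CPM in Van, with the groups apart (log2 fold change -0.40, edgeR adjusted p = 0.0875). The remaining markers named were Zbtb46 (log2 fold change -0.18), Cd209a (-0.19) and Itgax (-0.09), none of them called by either test. Their groups overlapped, and their directions can rest on single mice. Cd209a stood at 59.5, 40.8 and 33.5 CPM in Con and at 39.5, 47.3 and 31.0 CPM in Van. The summed level of the 16 markers was 1097 to 1202 CPM in Con and 994 to 1115 CPM in Van, and none was at 0 in all libraries. Their part in the difference of the class II genes was not tested.
Of 16 B cell markers, 15 were tested, and these 15 were lower in Van, at summed levels of 796 to 895 CPM in Con and 600 to 650 CPM in Van. Ighm, the heavy chain of IgM, made up most of that sum and was the 1 gene of the list called by edgeR (log2 fold change -0.52, adjusted p = 0.0162), while DESeq2 called 4, Blk, Cd37, Ighd and Ighm. The edgeR adjusted p of Ighm was between 0.0607 and 0.089 in 4 of the 6 fits that left out 1 mouse, those without Con replicate 2 or 3 or Van replicate 2 or 3. Without Ighm the sums were 192 to 210 CPM and 159 to 172 CPM. Ms4a1 was at 0.49 to 1.47 CPM over the 6 libraries and Cd79a at 1.13 to 2.77 CPM, neither of them called by either test. Of 9 markers of plasmacytoid dendritic cells, whose CD45R is a target of the depletion, 6 were lower and none was called by edgeR. An unadjusted p under 0.05 was found for 3, beside 16.5% of all genes in either direction, and 1, Siglech, was called by DESeq2. The sums were 264 to 277 CPM in Con and 235 to 274 CPM in Van. Most of them came from Runx2, Tcf4 and Bst2, with Con means of 119, 84.4 and 54.9 CPM, respectively. Siglech, a lectin of plasmacytoid dendritic cells, had a log2 fold change of -0.88 (edgeR adjusted p = 0.113) at 2.89 to 3.75 CPM in Con. The part of these cells was not tested either.

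The monocyte genes themselves did not move in 1 direction. Of 10 markers of classical monocytes, 5 were lower and 5 higher in Van, with summed levels of 4984 to 6523 CPM in Con and 3807 to 7285 CPM in Van. Ccr2, the chemokine receptor with which these cells leave the bone marrow, fell (log2 fold change -0.83, edgeR adjusted p = 0.0283), and Vcan, which encodes the proteoglycan versican, rose (1.54, adjusted p = 0.0309). The edgeR adjusted p of Ccr2 was between 0.0722 and 0.0991 without any 1 of the Con mice or without Van replicate 2, and that of Vcan between 0.0701 and 0.123 with any mouse but Van replicate 1 left out. Ly6c2, which defines the subset, was at 359 to 404 CPM in Con (log2 fold change -0.34, edgeR adjusted p = 0.240). In Van it was at 262, 272 and 377 CPM, so that Van replicate 3 alone lay in the range of Con. Of 10 markers of nonclassical monocytes, 4 were lower and 6 higher, none called by edgeR, with 3 at an unadjusted p under 0.05 and 1 (Eno3) called by DESeq2. Beside this and the lists that follow stands the 16.5% of all genes tested with such a p in either direction. Of 9 markers of monocytes in general, 5 were lower, and 1 of these, Fcgr1, was called by edgeR (log2 fold change -0.32, adjusted p = 0.0328, and 0.0679 to 0.127 with 1 mouse left out). DESeq2 called 3, Fcgr1 and Itgam, which were lower, and Cd14, which was higher. The red pulp macrophage list had 11 of 11 genes higher in Van, none called by edgeR, 5 at an unadjusted p under 0.05 and 2 (C1qb and Vcam1) called by DESeq2, with sums of 3991 to 4737 CPM in Con and 4636 to 5960 CPM in Van. Erythroid markers, which mark red blood cell precursors, were higher for 9 of 9 genes with 5 called (Alas2 and the globin genes Hba-a1, Hba-a2, Hbb-bs and Hbb-bt, of which some are near-identical copies), at sums of 84.7 to 172 CPM in Con and 285 to 626 CPM in Van. None of these 5 was called by edgeR without Van replicate 2 or any 1 of the Con mice, and DESeq2 called 7 of the 9. Of 5 natural killer cell genes tested, 1 was called, Klrk1, which fell (log2 fold change -0.90, edgeR adjusted p = 0.0495, and 0.0586 to 0.179 with 1 mouse left out, other than Van replicate 1). Neither edgeR nor DESeq2 called any of the 9 T cell or 7 neutrophil genes tested, with 2 and 1 at an unadjusted p under 0.05, and of 6 plasma cell genes edgeR called none, with 2 at an unadjusted p under 0.05, and DESeq2 called Sdc1.

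The genes whose pattern over the 6 libraries was most like that of the class II genes were sought among the 8408 other genes with a mean of at least 10 CPM. Their log2 CPM was compared by Pearson's correlation with a mean over the 10 genes. For that mean, the deviations of each gene were first divided by their SD over the 6 libraries. With 6 libraries these values are a description. The closest was Tnpo1, a nuclear import receptor (r = 0.993, Spearman's rho = 0.886, n = 6 libraries), at 222, 199 and 198 CPM in Con and 191, 180 and 179 CPM in Van. It was followed by Gm4070 (r = 0.992), 4930523C07Rik (0.992), Gvin1, a giant interferon-inducible GTPase (0.991), Nod2, a sensor of bacterial cell wall fragments (0.990), Mpdu1 (0.989), Nckap1l (0.988) and Fam178a (0.987). All 8 were lower in Van, with log2 fold changes of -0.06 (Nckap1l) to -0.41 (Nod2). This direction follows from the way they were chosen, since the pattern itself is higher in Con. The edgeR test called none of them, with 6 at an unadjusted p under 0.05, and DESeq2 called 2, 4930523C07Rik and Nod2. The choice favours small p-values too, so these counts are no separate result. Gm4070 and Gvin1 ran nearly in parallel and may share reads. In all, 51 genes, or 0.607%, had an r above 0.95, against values of 0.874 (H2-DMa) to 0.996 (H2-DMb2) for the 8 members above the same level, which are themselves part of the mean. Among these members, Ciita was at 0.924.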

How the data were processed

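The measurements are poly(A) RNA libraries of splenic monocytes, 1 for each of the 3 Con and 3 Van replicates of the labels. The RNA methods give 3 mice per group, while for cell cultures splenocytes of 2 spleens were combined, which the RNA methods do not mention. P-values measure the spread between these libraries. The paper names another deposit for its data, and groups were taken from the labels alone. Per the submitters' processing notes and the paper, the authors aligned the reads to GRCm38 with HISAT2 2.2.1, used SAMtools 1.9, and made the deposited FPKM values (scaled to transcript length and library size) with StringTie 2.1.3 and Ballgown. The authors converted these with tximport to the deposited estimated counts, which are not normalized and, being derived from coverage, need not equal numbers of fragments. The library kit marks strand. The annotation release and whether strand and reads with several alignments were used in counting are not given in the sources used here, so reads of overlapping genes and near-identical copies may be mixed.

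The estimated counts were rounded to whole numbers and tested with edgeR 4.0.16 under R 4.3.3, using TMM scaling, filterByExpr with its count minimum of 10 and the quasi-likelihood F test, with no term besides the group. P-values were adjusted over all genes by the Benjamini-Hochberg method, and a gene was called at 0.05 or less. The standard error was the log2 fold change divided by the square root of F. Single values were compared by exact two-sided permutation tests. The alternatives were DESeq2 1.42.0, the study's own test, RLE factors, library size alone, 2 other filters, the replicate number as a block, limma 3.58.1 on log2 FPKM (pseudocount 1 or 0.1) after quantile normalization, 1 identifier per symbol, and each library left out. The fits were tested on simulated data. Libraries of a group differed by a chi-square of 20.5 to 42.8 per gene, so none was a copy of another.

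The members, gene lists and tests were chosen with earlier results of these data known. Named were all members, called genes of the pathway lists (or the 2 farthest from 0 with a mean of at least 1 CPM), fixed markers and the 8 genes most like the members. Genes named outside this rule (H2-K1, Calr, Canx, Pdia3, Rfxap, Rfxank, Nfya, Nfyb, Nfyc, Irf1, March1, Ctss, Lgmn, Clec9a, Kmo, Batf3, Ighm, Runx2, Tcf4, Bst2, Ccr2, Vcan and other called genes of the marker lists) were picked after their values were seen, as were the class II to class I and H2-DMb2 to H2-DMb1 ratios. Some genes counted in the lists are not reported by name here. Gene coordinates are from GENCODE M21 and promoters from RefSeq.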

Additional observations from a re-analysis of the deposited data

How the results depend on the processing

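All 10 class II genes were lower in Van in all 15 alternatives, which share their libraries. Of the other genes followed through these alternatives, H2-K1 changed direction, with log2 fold changes of -0.218 (without Van replicate 1) to 0.0431 (without Con replicate 3), above 0 also without Van replicate 2 or 3, and the cause was not tested. Other genes named in the text, such as Calr, Lgmn and Ctss, were not followed in this way. The number of members called, 0 with edgeR, was 2 with DESeq2 (H2-Aa and H2-Eb1), 1 with the replicate number as a block (H2-Aa, edgeR adjusted p = 0.0383) and 0 in every other fit. Of the other class II pathway genes, 2 were called, against 5 with DESeq2, 1 with the replicate block, 0 with limma on either FPKM scale and 0 in each fit without 1 mouse. Of the class I genes, 0 were called, against 2 with DESeq2. Over all genes the number was 322, against 962 with DESeq2, 110 with the replicate block, 40 with limma on log2(FPKM + 1), 64 on log2(FPKM + 0.1) and 21 (without Van replicate 2) to 136 (without Con replicate 1) with 1 mouse left out.

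Whether the replicate numbers pair the mice is not stated by the labels. Over all genes tested, the deviations of same-numbered libraries correlated at 0.025, -0.0019 and -0.073. Not every library correlated best with its own number. These correlations cannot settle whether the class II genes varied by number. Replicate 1 was the highest of its group for 10 of these genes in Con and 8 in Van. With the number as a block, the standard error went from 0.136 to 0.053 for Cd74, and from 0.156 to 0.160 for H2-Oa. A pairing was not tested further. Over the members and the genes followed, a single gene crossed the threshold with its direction kept, into a call in 8 cases and out of one in 100. Of the 10 genes, H2-Oa and H2-Ob rest on the fewest counts, 295 to 564 per library.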
